A study of Mus musculus with 4 samples.

Results

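Cardiac transcription factors are DNA-binding proteins that set the gene programme of heart muscle. The 10 genes described here are Gata4, Gata6, Nkx2-5, Tbx5, Tbx20, Hand2, Mef2a, Mef2c, Mef2d and Srf, taken by their symbols from a table of 55401 genes, in which each symbol stood once. RNA had been measured by poly(A) RNA sequencing of heart tissue from mice aged 8 weeks, in 2 wild-type and 2 Ctcf heterozygous libraries. Heterozygous mice carried 1 edited allele of Ctcf, made with CRISPR/Cas9 on a C57BL/6N background, in which arginine 567 of the genome-organising factor CTCF is replaced by tryptophan (R567W), and the wild-type mice carried none. The edit was present in every cell from the germ line, not in heart muscle alone. The comparison asks how the adult heart transcriptome differs between these genotypes. The sex of the mice, their litters and the part of the heart taken were not given in the sources used here. The labels number the replicates without stating that they came from separate mice, so the spread between these samples may be technical in part. The p-values of the limma test below rest on that spread and on the spread of other genes at a similar level.

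GATA, homeobox, T-box and basic helix-loop-helix factors bind one another and neighbouring sites on DNA, and in the embryo they switch on the genes of contraction and conduction and shape the chambers. MEF2 and SRF are MADS-box factors that read AT-rich sequences and respond to signals for growth and muscle contraction through cofactors such as myocardin and class II histone deacetylases. In the adult heart the same proteins keep the muscle programme running and take part in hypertrophic growth.

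The sites that some of these factors read stand in the promoters of other members and of their known target genes, and the examples below show what such a site looks like. RefSeq promoter windows (build GRCm38.p6, 250 bases before to 50 after a start) were matched by symbol for 7 of the 10 members, in 9 windows, and for 27 of the 32 target genes. The matched target genes also had 32 windows. Shares of all windows are per window, while counts of members and target genes are per gene. Both strands were searched. The CArG box, the site of SRF, was present in 1.63% of all 32851 windows, and among the members it was found for Srf only, which held a pair of them. Capitals mark the CArG box, and each sequence is read 5′ to 3′ on the strand of its gene, with positions counted from 0 at the start.
Srf, bases -82 to -73, minus strand, chr17:46556230-46556249: gctcgCCATATAAGGagcgg
Srf, bases -62 to -53, minus strand, chr17:46556210-46556229: cctcgCCATAAAAGGaaaca
Acta1, bases -73 to -64, minus strand, chr8:123894834-123894853: gacacCCAAATATGGcttgg
Actc1, bases -47 to -38, minus strand, chr2:114052908-114052927: ggcgaCCAAATAAGGcaagg
Vcl, bases -227 to -218, plus strand, chr14:20929166-20929185: tatgcCCTTATAAGGagcgc
Myl9, bases -161 to -152, plus strand, chr2:156775298-156775317: agaggCCTAATAAGGccggg

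The last 4 of these are the only target genes whose windows held the box, 4 of 27, and their values are given with the target genes. The GATA site, searched as GATA preceded by A or T and followed by A or G, was commoner, at 29.8% of all windows. It was found for 1 of 7 members, Hand2, at 2 positions, and for 11 of 27 target genes. By window it was in 1 of 9 member windows and 11 of 32 target windows. It is shown in capitals for Hand2 and for the genes of both natriuretic peptides.
Hand2, bases -215 to -210, plus strand, chr8:57320761-57320780: ctatggcTGATAAaagggtt
Nppb, bases -95 to -90, plus strand, chr4:147985798-147985817: atgcagcTGATAAatcagag
Nppa, bases -122 to -117, plus strand, chr4:148000593-148000612: gccgaacTGATAActttaaa

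The site of MEF2 was found in 3.19% of all windows, for 1 of 7 members, Mef2a, where it lay across the start, and for 2 of 27 target genes, Xirp2 and Srpk3. No member window held the NKX2-5 site TNAAGTG, the T-box site AGGTGTNA or the core of the CTCF motif, which were in 11.5%, 3.03% and 4.07% of all windows. The E-box CANNTG, which basic helix-loop-helix factors such as HAND2 read, is short, and it was in 72.3% of all windows and in those of 3 members, Hand2, Mef2c and Nkx2-5. These are matches of letters, and no binding was measured here. A site that departs from the searched letters or lies outside a window was not counted, so a gene without a match may still hold such a site.

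All 10 genes were above 0 in all 4 libraries. Their levels are given as scaled TPM, the deposited TPM (RNA per gene as a share of the library, corrected for transcript length) divided by 1 factor per library, and so can be set side by side between genes. Together the members summed to 60.4 and 62.4 scaled TPM in the wild-type libraries and to 63.0 and 53.4 in the heterozygous ones. In wild-type hearts Mef2a and Mef2d stood highest, with means of 19.2 and 16.4, followed by Gata4 at 6.83, and the other 7 genes lay between 0.520 and 4.26. In falling order these were Nkx2-5, Srf, Gata6, Hand2, Mef2c, Tbx5 and Tbx20. The wild-type ranges of neighbours in the order did not overlap, except for Nkx2-5 and Srf. In heterozygous hearts Mef2d at 16.9 and Mef2a at 16.4 came first with overlapping ranges, and Gata4 at 6.56 was again apart from its neighbours. From Nkx2-5 through Gata6, Srf, Hand2 and Tbx5 to Mef2c no neighbours were apart there, and Tbx20 was again the lowest at 0.516. With 2 libraries each, such ranges are a description and not a test.

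**Figure D1:**
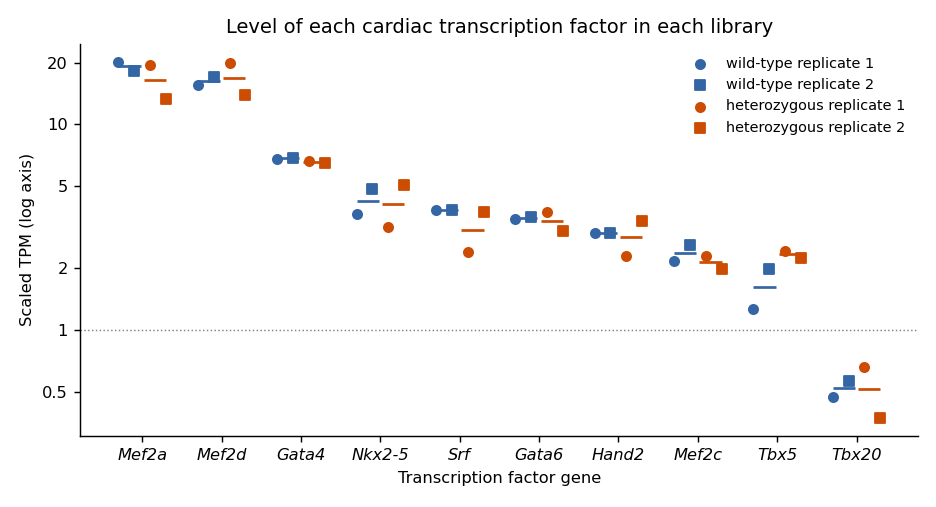
Scaled TPM (log axis) of the 10 genes in each of the 4 libraries, with circles and squares for replicates 1 and 2, blue for wild-type and orange for heterozygous, and short lines for the group means; the dotted line is 1 TPM. Mef2a and Mef2d lie between 13.3 and 20.2 in every library and Tbx20 between 0.373 and 0.658, and the heterozygous pair is spread more widely than the wild-type pair for most genes.

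No member differed between the genotypes by the limma test. A gene was tested where its mean deposited TPM was at least 1, which 9 of the 10 members passed and Tbx20 did not, and called where the Benjamini-Hochberg adjusted p over all 10036 tested genes was under 0.05 and the fold over 1.5. Of the 9 members, 0 were called, and 0 had an unadjusted p under 0.05, where the shares over all tested genes were 0.0299% (3 genes, all lower in heterozygous hearts) and 12.3%. With TPM as deposited, 2 genes were called higher and 11 lower, none of them a member. The smallest adjusted p of a member was 0.432, for Tbx5. Differences below are log2 fold changes, heterozygous minus wild-type, on the log2(scaled TPM + 1) scale, which understates changes of genes at low levels. All 9 intervals of 95% held 0. None reached a 2-fold difference in either direction on this scale, and 6 of the 9 lay within 1.5-fold, against 52.5% of all tested genes.

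The fold change was above 0 for 2 of the 9 members, Tbx5 and Mef2d, against 48.4% of all tested genes, but this count was 1 with the TPM as deposited and also with the mitochondrially encoded genes removed, and 4 with those genes and their nuclear copies removed. The median over the members was -0.05, beside -0.01 over all tested genes. These scalings moved the median of all tested genes too, to -0.35, -0.31 and 0.05, and with TPM as deposited the members ran from -0.65 for Mef2a and -0.60 for Srf to 0.06 for Tbx5, with the other 6 between -0.43 and -0.38. Counted against that median the members above it were 2 of 9 as scaled and 1, 2 and 2 of 9 under these alternatives. For 1 member, Tbx5, the lowest heterozygous value exceeded the highest wild-type value, as it did for 23.0% of all tested genes. The reverse held for 2 members, Gata4 and Srf, and for 24.0% of all tested genes.

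**Figure D2:**
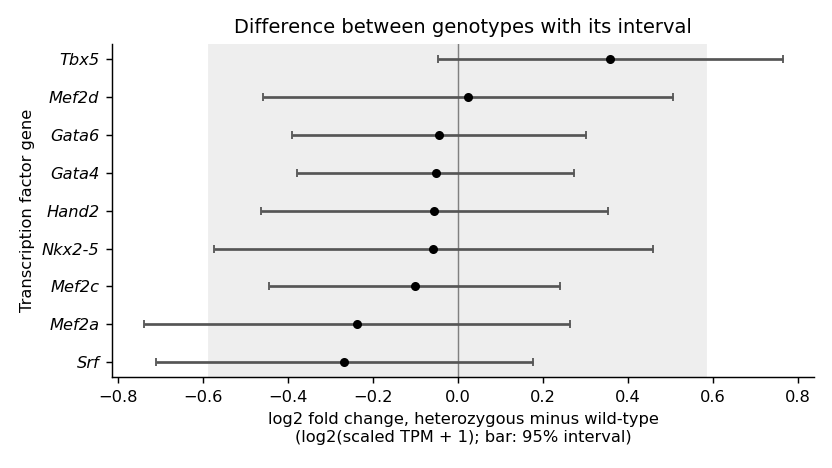
The log2 fold change (heterozygous minus wild-type, horizontal axis, on the log2(scaled TPM + 1) scale) of the 9 tested members, with bars for the 95% interval of the limma fit and a grey band for 1.5-fold either way. Every bar crosses 0, from the lowest bound of -0.74 for Mef2a to the highest of 0.76 for Tbx5.

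GATA4 and GATA6 are zinc finger proteins with overlapping roles in the growth of heart muscle. Gata4 (ENSMUSG00000021944.15, chr14:63198922-63271692, minus strand, GRCm38) measured 6.81 and 6.86 scaled TPM in wild-type hearts and 6.65 and 6.46 in heterozygous hearts. Its 4 values were the most even of the members, and the genotypes did not overlap. The difference of -0.05 (SE 0.14, 95% interval -0.38 to 0.27) was smaller than its SE, with an adjusted p of 0.890 by limma. That SE is drawn towards the spread of other genes. It was larger than the differences between replicates of Gata4 itself, 0.009 in wild-type and -0.04 in heterozygous hearts. Gata6 (ENSMUSG00000005836.10, chromosome 18) was less abundant, at 3.46 and 3.56 in wild-type and 3.74 and 3.03 in heterozygous hearts. The heterozygous libraries bracketed the wild-type ones, with a difference of -0.04 (interval -0.39 to 0.30, adjusted p 0.916 by limma). The sign of both differences turned when the mitochondrial genes and their copies were removed, to 0.01 for each. Within a library, where scaling has no part, Gata4 was 1.97 and 1.93 times Gata6 in wild-type and 1.78 and 2.13 times in heterozygous hearts.

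NKX2-5 is the homeobox protein of the early heart field and of the conduction system. Nkx2-5 (ENSMUSG00000015579.5, chr17:26838664-26845009, minus strand) measured 3.67 and 4.84 in wild-type and 3.16 and 5.06 in heterozygous hearts. The low and the high library of each genotype lay further apart than the genotype means of 4.26 ± 0.83 and 4.11 ± 1.35 (SD, n = 2 each). The difference of -0.06 had the widest interval of the members, -0.57 to 0.46 (adjusted p 0.928 by limma), and leaving out 1 library moved it from -0.34 (without heterozygous replicate 2) to 0.21 (without heterozygous replicate 1).

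The T-box proteins TBX5 and TBX20 bind the same kind of site. TBX5 activates atrial, septal and conduction genes, and TBX20 activates genes of adult heart muscle and represses others. Tbx5 (ENSMUSG00000018263.11, chr5:119832668-119885219, plus strand) measured 1.27 and 1.98 in wild-type and 2.44 and 2.23 in heterozygous hearts. Both heterozygous values were above both wild-type ones, and the gap between the genotypes was narrower than the gap between the wild-type libraries. The means were 1.62 ± 0.51 and 2.33 ± 0.15, a difference of 0.36 (SE 0.17, interval -0.05 to 0.76, unadjusted p 0.075, adjusted p 0.432 by limma). This was the largest of the members in size as scaled, but with TPM as deposited it was 0.06 (adjusted p 0.829 by limma), the smallest, and without mitochondrial genes 0.19. It ranged from 0.15 without wild-type replicate 1 to 0.54 without wild-type replicate 2.

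Because Tbx5 is richest in the atria, the atrial markers Nppa, Myl7, Myl4 and Sln were read beside it. Summed, they measured 810.5 and 2340 scaled TPM in wild-type and 1910 and 3256 in heterozygous hearts. Wild-type replicate 1, the lowest library for Tbx5, was also the lowest for these markers, but heterozygous replicate 1, the highest for Tbx5, was below wild-type replicate 2 for them. All 4 markers had a higher heterozygous mean, none was apart between genotypes and 0 were called by limma, and their part in the Tbx5 values was not tested. Nppa is also among the target genes listed below, so the sum is not independent of the members. In bulk tissue a smaller number of cells of a type and less RNA per cell cannot be told apart.

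Tbx20 (ENSMUSG00000031965.15, chr9:24718138-24774303, minus strand) measured 0.471 and 0.568 in wild-type and 0.658 and 0.373 in heterozygous hearts. These overlapping values come from deposited TPM of 0.51, 0.72, 0.54 and 0.34, whose read depth is unknown. In the fit with no filter on low values its difference was -0.01 (interval -0.36 to 0.34, adjusted p 0.977 by limma). Within libraries the ratio of Tbx5 to Tbx20 was 2.69 and 3.49 in wild-type and 3.70 and 5.97 in heterozygous hearts, a difference of 0.62 in mean log2 ratio. Both heterozygous ratios were the higher, which in an exact two-sided permutation test gives p = 0.333, the smallest that 2 against 2 libraries allow, and 1.0 after adjustment over the 6 ratios tested.

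HAND2 is a basic helix-loop-helix protein of the right ventricle and of cells derived from the neural crest. Hand2 (ENSMUSG00000038193.4, chr8:57320983-57324633, plus strand) measured 2.96 in each wild-type library and 2.30 and 3.39 in the heterozygous ones. The wild-type pair lay between the heterozygous values, and the difference was -0.05 (interval -0.46 to 0.35, adjusted p 0.910 by limma). The noncoding Hand2os1, which overlaps an exon of Hand2 on the other strand, had deposited TPM of 13.8 and 17.8 in wild-type and 13.3 and 10.4 in heterozygous hearts, above Hand2 in every library. Whether the counting used strand was not stated, so reads of such a pair may have been shared between the genes. The same limit holds for Gata6, Mef2a and Mef2d, which overlap 1010001N08Rik, Lysmd4 and 1700113A16Rik on the opposite strand.

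The MEF2 proteins are the MADS-box activators of muscle genes. Mef2a (ENSMUSG00000030557.17, chr7:67231163-67372858, minus strand) measured 20.2 and 18.2 in wild-type and 19.5 and 13.3 in heterozygous hearts. Heterozygous replicate 2 alone was below the other 3, and the difference of -0.24 (interval -0.74 to 0.26, adjusted p 0.651 by limma) was 0.02 without that library. Mef2d (ENSMUSG00000001419.17, chr3:88142372-88172086, plus strand), which was nearly as abundant, measured 15.6 and 17.1 in wild-type and held both the highest and the lowest value in heterozygous hearts, 19.9 and 13.9. Its difference was 0.02 (interval -0.46 to 0.51, adjusted p 0.970 by limma), and turned to -0.39 with TPM as deposited and to -0.30 with the mitochondrial genes removed. Mef2c (ENSMUSG00000005583.16, chr13:83504034-83667080, plus strand), the member of the family that the embryonic heart tube depends on, was the least abundant at 2.16 and 2.58 in wild-type and 2.29 and 1.99 in heterozygous hearts. The difference of -0.10 (interval -0.44 to 0.24) had an adjusted p of 0.785 by limma.

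Read as shares of the family's summed TPM, which no scaling can move, Mef2a made up 53.1% and 48.1% in wild-type and 46.8% and 45.6% in heterozygous hearts. Mef2d made up 41.2% and 45.1% in wild-type and 47.7% and 47.6% in heterozygous hearts, and Mef2c between 5.49% and 6.83% in all 4. Mef2a was thus 1.29 and 1.07 times Mef2d in wild-type and 0.980 and 0.956 times in heterozygous hearts, a difference of -0.28 in mean log2 ratio. All wild-type ratios were above 1 and all heterozygous ones below, with an exact permutation p of 0.333 (two-sided), the smallest possible, and 1.0 after adjustment. Leaving out 1 library kept this difference between -0.41 and -0.14. The ratios of Mef2a to Mef2c and of Mef2c to Mef2d overlapped between the genotypes, with differences of -0.11 and -0.17 and an exact permutation p of 0.667 each.

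SRF is the MADS-box factor of the CArG boxes printed above, and it drives sarcomere, cytoskeletal and immediate early genes. Srf (ENSMUSG00000015605.6, chr17:46548329-46556175, minus strand) measured 3.83 in each wild-type library and 2.39 and 3.76 in the heterozygous ones. Heterozygous replicate 1 was well below the other 3, while replicate 2 lay just under the wild-type pair, so the genotypes did not overlap by a narrow margin. The difference of -0.27 (SE 0.19, interval -0.71 to 0.18, adjusted p 0.561 by limma) was -0.52 without heterozygous replicate 2 and -0.03 without heterozygous replicate 1. Set against the summed MEF2 genes within each library, Srf had a ratio of 0.101 in both wild-type libraries and of 0.0573 and 0.129 in the heterozygous ones, which lay on either side.

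**Figure D3:**
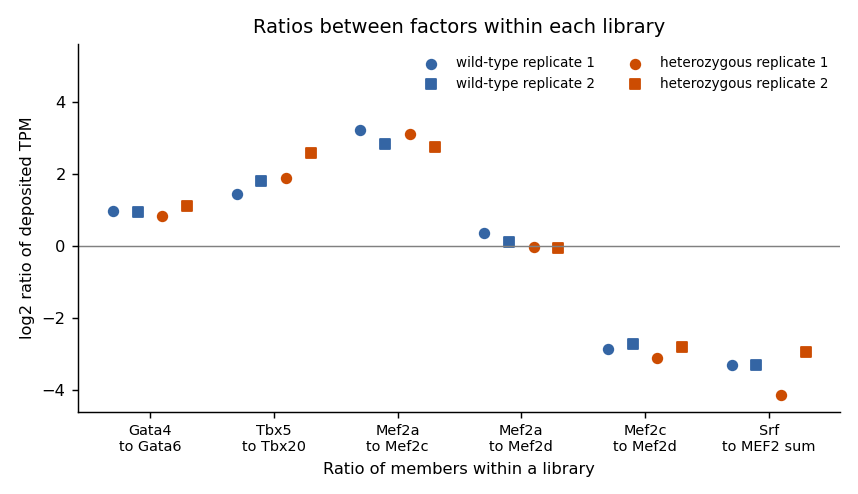
The log2 ratio of deposited TPM (vertical axis) for 6 pairs of members within each of the 4 libraries, with circles and squares for replicates 1 and 2, blue for wild-type and orange for heterozygous. The genotypes separate for Tbx5 to Tbx20 and for Mef2a to Mef2d, and the ratio of Srf to the MEF2 sum is nearly the same in the wild-type pair and wide apart in the heterozygous pair.

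In many of these values the heterozygous pair lay far apart. The difference between the 2 heterozygous libraries was larger than that between the 2 wild-type libraries for 7 of 9 members (77.8%), beside 63.5% of all tested genes. Its median size was 0.41 on the log2(scaled TPM + 1) scale for the members, against 0.12 in the wild-type pair, and 0.21 and 0.13 over all tested genes. For 7 of 9 members it also exceeded the difference between the genotypes, beside 56.3% of all tested genes. Replicate 2 was the higher of the pair for Nkx2-5 (0.55), Srf (0.49) and Hand2 (0.41). It was the lower for Mef2a (-0.52), Mef2d (-0.49), Gata6 (-0.23), Mef2c (-0.14), Tbx5 (-0.09) and Gata4 (-0.04).

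These directions went with the length of the transcripts and with their GC content. Nkx2-5, Hand2 and Srf have the shortest transcripts of the 9, of 1525, 2351 and 2616 bases for the longest annotated one. The other 6 have 3400 (Gata4) to 6277 bases (Mef2c). Nkx2-5, Hand2 and Srf also have the highest GC content, at 67.1%, 59.3% and 64.4%, against 40.8% (Mef2c) to 57.4% (Gata4). Length and GC content cannot be told apart among the members. Over 10031 tested genes with an annotated transcript the Spearman correlation of replicate 2 minus replicate 1 with transcript length was -0.47 in the heterozygous pair and -0.04 in the wild-type pair, and with GC content 0.23 and -0.02. For the difference between genotypes it was 0.07 with length and 0.08 with GC content. These are descriptions across genes, which share 4 libraries and are not independent. The part of transcript length or GC content in the members' values was not tested.

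**Figure D4:**
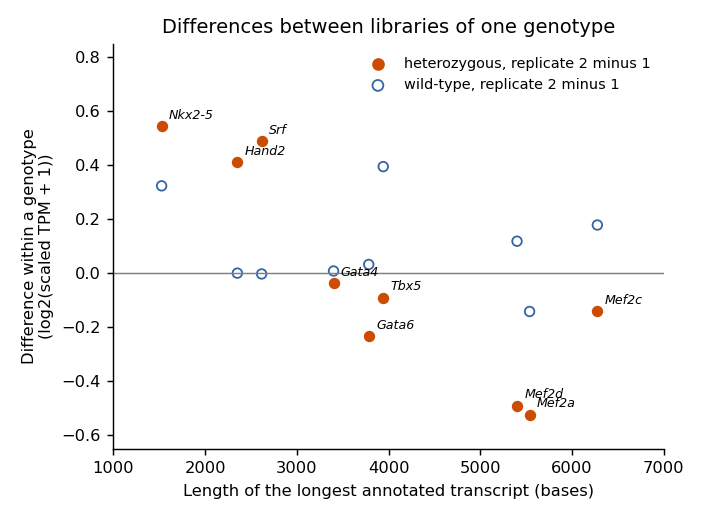
The difference between replicate 2 and replicate 1 (vertical axis, log2(scaled TPM + 1)) of the heterozygous pair (filled orange) and the wild-type pair (open blue) for the 9 tested members, against the length in bases of the longest annotated transcript (horizontal axis). The 3 shortest, Nkx2-5, Hand2 and Srf, are at 0.41 to 0.55 in the heterozygous pair and the other 6 at -0.04 to -0.52. These 3 also have the highest GC content.

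As a whole the members were also set against markers of heart muscle. The cardiomyocyte markers Myh6, Tnnt2, Tnni3, Actc1, Pln, Ryr2, Ttn, Myl2 and Mybpc3 were all present and summed to 23153 and 21493 scaled TPM in wild-type and 19026 and 22346 in heterozygous hearts. The mean log2(TPM + 1) of the members minus that of these markers was -7.18 and -7.04 in wild-type and -6.82 and -6.98 in heterozygous hearts, a difference of 0.21 with the genotypes apart (exact permutation p = 0.333, two-sided, the smallest possible). Of these markers, Myh6, Tnnt2, Tnni3, Actc1, Pln and Myl2 are also among the target genes listed below, so the measure is not independent of the members. Without Myh6, Actc1 and Tnnt2 among the markers the difference was 0.18. With all markers but no pseudocount, an alternative chosen after seeing the data, it was 0.10 and the genotypes overlapped (exact permutation p = 0.667). The 3 genes whose 4 values, centred on their own mean, lay closest to the mean profile of the members were Tmem189, Il10rb and Ncaph2, at root mean square distances of 0.0057, 0.0085 and 0.0085 log2 units. That profile was nearly flat, at -0.03 and 0.07 in wild-type and -0.02 and -0.03 in heterozygous hearts. It is a mean over members that went in opposite directions within the heterozygous pair, 3 higher and 6 lower in replicate 2. Single members such as Nkx2-5 (0.55) and Mef2a (-0.52) were therefore not flat.

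Ctcf, the edited gene, measured 6.15 and 5.99 in wild-type and 7.48 and 5.71 in heterozygous hearts, with a difference of 0.09 (interval -0.30 to 0.49, adjusted p 0.834 by limma) that turned to -0.29 with TPM as deposited and to -0.21 without mitochondrial genes. A point change does not alter this measure, which cannot split the alleles, so it is no check of the labels. Mitochondrially encoded transcripts took 61.1% to 68.6% of all TPM and their nuclear copies a further 14.1% to 19.8%, so the members were quantified from the remaining 14.2% to 24.0%, which was lower in both heterozygous libraries. Endothelial markers summed to 273.0 and 268.5 in wild-type and 302.0 and 347.4 in heterozygous hearts. Only 2 of the 7 had a higher heterozygous mean, and the higher sum came from Egfl7, at 197.5 and 192.1 in wild-type and 233.9 and 274.9 in heterozygous hearts, since the other 6 summed to 75.4 and 76.4 in wild-type and to 68.1 and 72.5 in heterozygous hearts. Erythroid markers summed to 934.4 and 981.0 in wild-type and 961.5 and 2104 in heterozygous hearts. Fibroblast markers summed to 58.1 and 80.9 in wild-type and 54.4 and 57.9 in heterozygous hearts, with 5 of 7 lower and 2 higher. Mural markers summed to 51.4 and 49.6 in wild-type and 41.0 and 48.6 in heterozygous hearts, with 5 of 5 lower. Both sums were thus lower in both heterozygous libraries, and 0 of these markers were called by limma. Macrophage and immune markers summed to between 20.4 and 28.2, epicardial to between 6.96 and 9.17, Schwann cell to between 2.42 and 4.34 and adipocyte to between 0.073 and 0.480. The defining markers Sox10 of Schwann cells and Adipoq, Ucp1 and Plin1 of adipocytes were under 0.5, and the part of these cells in the members' values was not tested.

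Around the members, 35 other cardiac transcription factors were read from a list. Of these, 23 passed the filter and 0 were called. Fold changes were above 0 for 10 of the 23 and below for 13, with a median of -0.02, and the count above 0 was 1, 4 and 14 of 23 with TPM as deposited, without mitochondrial genes, and without these and their copies. Counted against the median of all tested genes it was steadier, at 11, 14, 12 and 11 of 23. Without heterozygous replicate 2 the median was 0.12, with 14 of 23 above 0. Both heterozygous libraries were the higher for 4 of 23 genes and the lower for 3, beside 23.0% and 24.0% of all tested genes. One gene had an unadjusted p under 0.05, Klf15, a repressor of hypertrophic growth and regulator of cardiac metabolism, at 4.66 and 4.20 in wild-type and 7.04 and 7.11 in heterozygous hearts. The 2 pairs were tight and well apart, with a difference of 0.57 (interval 0.24 to 0.90), but its adjusted p of 0.307 by limma did not pass. The difference was 0.20 with TPM as deposited and 0.33 without mitochondrial genes.

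Tead2, which works with the growth regulator YAP, measured 2.76 and 2.90 in wild-type and 3.62 and 3.71 in heterozygous hearts (0.29, adjusted p 0.423 by limma), a gap that became -0.05 with TPM as deposited. Tead1, of the same family, differed by -0.00 (interval -0.36 to 0.36). Irx4, a factor of the ventricles, measured 7.94 and 7.93 in wild-type and 9.06 and 9.23 in heterozygous hearts (0.18, adjusted p 0.594 by limma), and turned to -0.21 with TPM as deposited and -0.12 without mitochondrial genes. Tbx3, the repressor that keeps conduction tissue apart from working muscle, overlapped between the genotypes at 0.97 to 2.22. Hand1, the partner of Hand2 in the embryo, was listed at 0 in all 4 libraries, as was Isl1 of the early progenitor cells.

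Proteins known to bind or regulate the members formed a list of 24 cofactors, of which 23 were tested and 0 were called, with 0 at an unadjusted p under 0.05. Fold changes were above 0 for 14 of 23, with a median of 0.07, but for 0, 2 and 17 of 23 under the 3 other scalings in the order above. Against the median of all tested genes the counts were 14, 13, 14 and 14 of 23. Without heterozygous replicate 1 the median of the cofactors was -0.08, with 10 of 23 above 0. The genotypes did not overlap for 6 of 23 genes with higher and 4 with lower heterozygous values, beside 23.0% and 24.0% of all tested genes. The size of the largest difference was that of Hopx, a homeodomain protein that lacks DNA binding and restrains SRF, at 14.7 and 18.0 in wild-type and 8.44 and 13.6 in heterozygous hearts (-0.55, interval -1.12 to 0.01, adjusted p 0.409 by limma). Its difference was -0.24 without heterozygous replicate 1 and -0.88 without heterozygous replicate 2, and -0.96 with TPM as deposited. Smarcd3, the chromatin remodelling subunit that works with GATA4 and TBX5, measured 20.2 and 20.6 in wild-type and 24.3 and 29.1 in heterozygous hearts (0.37, adjusted p 0.421 by limma), and was at -0.05 with TPM as deposited.

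Myocardin, the muscle-specific coactivator of SRF, had a mean below the filter, and Myocd stood at 1.05 and 0.986 in wild-type and at 0.926 and 0.395 in heterozygous hearts. The actin-regulated coactivators of SRF, Mrtfa and Mrtfb, differed by -0.11 (interval -0.43 to 0.21) and 0.07 (-0.33 to 0.47). The class II histone deacetylases that hold MEF2 in check differed by 0.09 for Hdac4 (-0.32 to 0.51), 0.04 for Hdac5 (-0.34 to 0.42) and 0.08 for Hdac9 (-0.30 to 0.46). With TPM as deposited or without mitochondrial genes, Mrtfb and these deacetylases were below 0. Hdac5 was the most abundant of these, at a mean of 36.0 and 37.0 in wild-type and heterozygous hearts. Zfpm2, the GATA4 partner FOG2, differed by -0.05 (-0.45 to 0.35), and Smyd1, a muscle methyltransferase that MEF2C controls, by 0.04 (-0.38 to 0.46), which was also below 0 under those scalings.

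Genes known to be bound by the members in heart or muscle formed a list of 32, of which 28 were tested. None was called by limma, and 5 had an unadjusted p under 0.05, among them Egr1, Kcnh2, Nppb and Vcl, in a comparison where 12.3% of all tested genes did. Fold changes were above 0 for 10 and below for 18 of 28, with a median of -0.21, and the count above 0 was 4, 5 and 10 under the other scalings. Against the median of all tested genes the counts above were 10, 8, 10 and 10 of 28. Both heterozygous libraries lay below both wild-type ones for 11 of 28 and above for 4 of 28, beside 24.0% and 23.0% of all tested genes. Leaving out heterozygous replicate 1 brought the median to -0.07, with 13 of 29 above 0, and leaving out heterozygous replicate 2 brought it to -0.34, with 7 of 28.

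Of the genes with CArG boxes printed above, Actc1, cardiac actin, measured 1073 and 1004 in wild-type and 644.3 and 874.5 in heterozygous hearts (-0.47, interval -1.01 to 0.08, adjusted p 0.441 by limma). Both heterozygous libraries were the lower, and heterozygous replicate 1 was the lowest. The difference was -0.25 without that library and -0.69 without heterozygous replicate 2. Vcl, the adhesion protein vinculin, measured 6.53 and 6.38 in wild-type and 4.81 and 3.16 in heterozygous hearts (-0.60, interval -1.05 to -0.16, unadjusted p 0.016, adjusted p 0.340 by limma), and there replicate 2 was the lowest. The difference was -0.37 without that library and -0.85 without heterozygous replicate 1. With TPM as deposited it was -0.90 for Actc1 and -0.97 for Vcl. Acta1, skeletal actin, ranged from 57.6 to 94.0 with overlapping genotypes (0.19, interval -0.42 to 0.80), and Myl9, a smooth muscle myosin light chain, from 15.7 to 30.4 (0.23, interval -0.46 to 0.92). Both were below 0 with TPM as deposited and without mitochondrial genes. Egr1, an immediate early gene that SRF drives, measured 1.82 and 2.34 in wild-type and 1.41 and 1.14 in heterozygous hearts (-0.43, adjusted p 0.366 by limma). The difference was -0.71 with TPM as deposited and -0.84 without mitochondrial genes. At this low level it also moved with the pseudocount, to -0.66 with 0.1 in place of 1.

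Of the genes with GATA sites printed above, Nppb, brain natriuretic peptide, measured 109.4 and 120.5 in wild-type and 163.4 and 211.5 in heterozygous hearts. The pairs were apart, with a difference of 0.69 (interval 0.20 to 1.18, unadjusted p 0.013, adjusted p 0.336 by limma), which was 0.25 with TPM as deposited and 0.37 without mitochondrial genes. Nppa, atrial natriuretic peptide, measured 394.5 and 1197 in wild-type and 1008 and 1725 in heterozygous hearts, which overlapped (0.94, interval -0.30 to 2.18, adjusted p 0.482 by limma). The Nppa difference was 0.13 without wild-type replicate 1, 1.74 without wild-type replicate 2 and 0.50 with TPM as deposited. Nppa is itself 1 of the 4 atrial markers, which were all lowest in wild-type replicate 1, and the part of atrial tissue in its values was not tested.

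Kcnh2, a repolarising potassium channel, measured 11.6 and 15.0 in wild-type and 19.4 and 25.7 in heterozygous hearts (0.71, SE 0.21, adjusted p 0.334 by limma). The heterozygous pair was the higher, and the difference did not pass the adjustment and was 0.30 with TPM as deposited and 0.42 without mitochondrial genes. Gja5, the connexin of atria and conduction tissue, ranged from 0.656 to 1.44 and was not tested. Myh6, the fast cardiac myosin, differed by 0.07 (interval -0.43 to 0.57), turning to -0.37 with TPM as deposited, -0.26 without mitochondrial genes and -0.30 with quantile normalization, and Ckm, muscle creatine kinase and a MEF2 target, by -0.22 (interval -0.77 to 0.33).

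**Figure D5:**
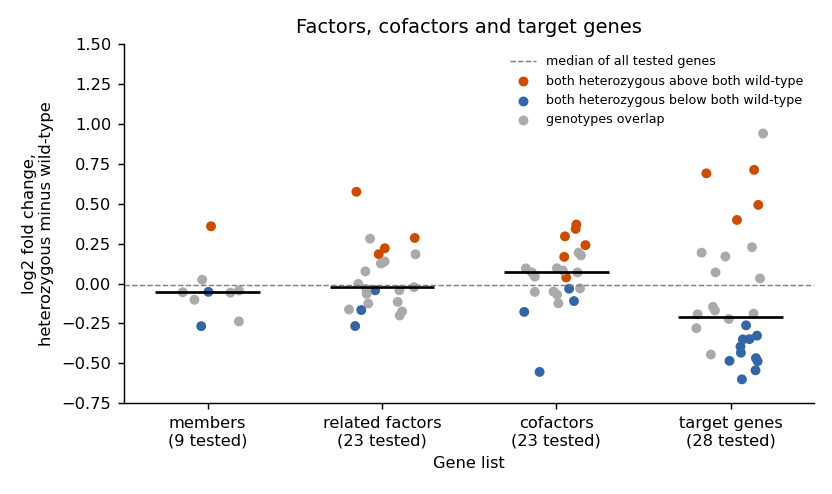
The log2 fold change (heterozygous minus wild-type, vertical axis) of every tested gene of the members and of the 3 lists, with a black line at each median and a dashed line at the median of all tested genes (-0.01). Orange and blue points are genes whose heterozygous libraries both lay above or both lay below the wild-type ones, 1 and 2 of 9 members and 4 and 11 of 28 target genes, and no point passed the limma test; counts above 0 shift with the scaling as given in the text.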

How the data were processed

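Poly(A) RNA of heart tissue was sequenced in 4 libraries. The authors trimmed reads with Trim Galore, aligned them to mm10 with STAR and quantified genes with RSEM, and deposited TPM values per gene, rounded to 2 decimals. TPM keep no depth, so the depth and counting error behind each value are unknown, and the authors' DESeq2 test on counts was not repeated. Mitochondrial transcripts take most of the TPM of each library, which lowers the values of all other genes, so values were scaled by median-of-ratios factors (0.821 to 1.27) and log2(value + 1) was used.

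The 10036 genes whose mean TPM reached 1 entered a linear model in limma (3.58.1, R 4.3.3) with a trended empirical Bayes variance. This draws the variance of each gene towards a trend over all tested genes (prior degrees of freedom 4.76). Its p-values are two-sided and were adjusted by Benjamini-Hochberg over these genes. The script was tested on simulated data. Within-library ratios used exact permutation tests in SciPy (1.17.1). Positions and transcript lengths are from GENCODE M21 (GRCm38), whose gene identifiers matched 55141 of the 55401 in the table, and promoters from RefSeq. Nuclear copies of mitochondrial genes (11 genes) matched a mitochondrial gene at 95% identity over 80% of their length.

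Groups follow the genotype labels. The members and lists were chosen with earlier results of these data known. Genes named in the text are the members, Ctcf, chosen genes of each list, the 2 genes of each list with the largest difference among those whose genotypes did not overlap, and 3 genes with the most similar profile. Some listed genes are not reported here. Vcl, Myl9, Egfl7, Isl1, Xirp2 and Srpk3 were named after their values were seen. Alternatives varied the pseudocount, filter, scaling, empirical Bayes step, replicate block and libraries used.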

Additional observations from a re-analysis of the deposited data

How the results depend on the processing

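No member was called under any alternative run in which it was tested, so the side of the threshold was the same there. Tbx20 was tested only with no filter on low values, and at a mean TPM of at least 5 only 3 members were tested. Counts over all tested genes moved more. Higher and lower calls were 2 and 11 with TPM as deposited, 2 and 12 without mitochondrial genes, 2 (higher) without these and their nuclear copies, an alternative chosen after seeing the data, and 0 (lower) with no filter, beside 0 and 3 in the reported fit. A replicate block gave 3 and 8. What the numbers mark was not given in the sources used here, same-numbered libraries deviated together with a correlation of 0.10 over 10036 genes, and the block called no member. Leaving out 1 library gave 4 to 12 higher and 3 to 25 lower calls, the most without heterozygous replicate 1 (12 higher) and without wild-type replicate 2 (25 lower). The lone library was then assumed to vary like the other group.

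Members higher in heterozygous hearts were 1 of 9 with TPM as deposited or without mitochondrial genes, and 4 of 9 without mitochondrial genes and copies. At a mean TPM of at least 5 only 3 members were tested, with fold changes as in the reported fit, and 1 of the 3 was higher. With 1 library left out the count went from 1 (without wild-type replicate 1) to 4 (without heterozygous replicate 2). The median of the members was -0.41 with TPM as deposited and -0.37 without mitochondrial genes, and -0.075 to -0.028 with 1 library left out. Members apart and higher, and apart and lower, were 0 and 7 of 9 as deposited, 0 and 6 of 9 without mitochondrial genes, and 1 of 9 (lower) without copies. At a mean TPM of at least 5 they were 0 and 1 of 3. As deposited and without mitochondrial genes the median of all tested genes was itself -0.35 and -0.31. With 1 library left out they were 1 to 3 and 3 to 6, with 3 and 6 without heterozygous replicate 1 and 3 and 4 without heterozygous replicate 2. A lone library lies outside a pair more readily than 2 libraries do, so these counts cannot be set beside the others. The matching shares of all tested genes were not counted under the alternatives, so none of these counts is a result about the members. The members relative to cardiomyocyte markers went from 0.21 to 0.10 with no pseudocount, and ranged from 0.13 to 0.29.

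Fold changes that turned with TPM as deposited were those of Mef2d (-0.39), Ctcf (-0.29), Irx4 (-0.21), Mrtfb (-0.24), Hdac4 (-0.21), Hdac5 (-0.39), Hdac9 (-0.26), Smyd1 (-0.38), Myh6 (-0.37), Acta1 (-0.24), Myl9 (-0.19), Tead2 (-0.050) and Smarcd3 (-0.051). Without mitochondrial genes they were those of Mef2d (-0.30), Ctcf (-0.21), Irx4 (-0.12), Mrtfb (-0.20), Hdac4 (-0.15), Hdac5 (-0.28), Hdac9 (-0.20), Smyd1 (-0.28), Myh6 (-0.26), Acta1 (-0.13) and Myl9 (-0.088). Without the copies too they were those of Gata4 (0.012), Gata6 (0.014), Tead1 (0.066), Tmem189 (0.023), Il10rb (0.011) and Ncaph2 (0.015). Quantile normalization turned Myh6 (-0.30).

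Leaving out 1 library turned Mef2a (-0.50 to 0.020), Mef2d (-0.23 to 0.27), Nkx2-5 (-0.34 to 0.21), Hand2 (-0.27 to 0.15), Gata6 (-0.17 to 0.070), Ctcf (-0.079 to 0.26), Tbx3 (-0.40 to 0.32), Tead1 (-0.13 to 0.12), Zfpm2 (-0.25 to 0.13), Mrtfb (-0.12 to 0.25), Hdac4 (-0.10 to 0.28), Hdac9 (-0.10 to 0.25), Smyd1 (-0.090 to 0.17), Myh6 (-0.037 to 0.17), Acta1 (-0.067 to 0.44), Ckm (-0.48 to 0.025), Myl9 (-0.23 to 0.68) and Tmem189 (-0.094 to 0.0073). Unless stated, the cause of these changes was not tested. No depth is given, so counting error at low levels such as that of Tbx20 is unknown.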
